A study of Ovis aries with 2 samples.

Results

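The calgranulin genes S100A8 (ENSOARG00020027661) and S100A12 (ENSOARG00020000765) and the receptor gene CSF3R (ENSOARG00020015107) were followed in single cells of a sheep artery and of an implanted vascular graft. They are 3 of the 21890 genes in the count matrices and were taken by their exact symbols. In each library, barcodes with CSF3R were then set apart from barcodes with the macrophage genes C1QA, C1QB and CSF1R. One library came from the native carotid artery (titled as an aorta, with the carotid named as its source) and 1 from a cell-free graft titled H2R5-ATEV. Both tissues were removed 12 weeks after grafts were placed in sheep aged 1 to 2 years. The number of animals is not given in the labels. Cells were freed by enzymes perfused into the clamped vessel, and red cells were lysed before capture, per the labels' protocols.

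S100A8 and S100A12 are small calcium-binding proteins that neutrophils store in their cytosol in large amounts and that monocytes also make. Released outside the cell, they attract and activate leukocytes, in part through TLR4 and AGER. CSF3R is the receptor for G-CSF, the growth factor that drives neutrophil production, and is kept on mature neutrophils. The proteins C1QA and C1QB of the complement component C1q and the growth factor receptor CSF1R mark macrophages.

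The graft library was far deeper per barcode than the native one. After filtering, 10080 native barcodes (40609567 unique molecular identifiers, UMIs) had a median of 1510 UMIs, and 1074 graft barcodes (35167561 UMIs) had a median of 20738. The libraries shared 7 barcode sequences, of which 5 were kept in each. The shared barcodes held 0 native and 2 graft UMIs of the 3 genes. Levels are given as CPM, a gene's UMIs per 1000000 UMIs summed over the barcodes named. Intervals are exact 95% intervals (Poisson for levels, Clopper-Pearson for shares, conditional binomial for ratios) and cover counting error only. With 1 library per group there is no replicate check, and no test between groups was made. S100A9, the usual partner of S100A8, and the neutrophil genes CXCR1, CXCR2, FPR1, MCEMP1 and G0S2 had no matching symbol and were not analysed here.

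Both calgranulins were far higher in the graft library than in the native artery library, while CSF3R was low in both. S100A8 stood at 3.08 CPM in the artery (125 UMIs in 31 barcodes) and at 131 CPM in the graft (4607 UMIs in 184 barcodes), a 42.6-fold difference (35.6 to 51.3). S100A12 stood at 2.93 CPM in the artery (119 UMIs in 25 barcodes) and at 203.8 CPM in the graft (7168 UMIs in 221 barcodes), a 69.6-fold difference (58.0 to 84.1). CSF3R stood at 3.20 CPM in the artery (130 UMIs in 89 barcodes) and at 1.91 CPM in the graft (67 UMIs in 41 barcodes). After adding 5 CPM to both levels, 2 of the 3 genes were at least 2-fold higher in the graft, against 5.27% of the 17601 genes with at least 10 UMIs. None of the 3 was at least 2-fold lower, against 4.64% of those genes.

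The direction for CSF3R depended on how barcodes were weighted. Summed over all UMIs, its graft-over-native log2 ratio was -0.75 (-1.20 to -0.31). With each barcode given equal weight the log2 ratio was 2.31, and with each barcode thinned to 1000 UMIs it was 2.34. The share of barcodes with a CSF3R UMI was 0.883% in the artery and 3.82% in the graft, and 0.285% and 1.65% after thinning. The gene's UMIs in the graft lay largely in shallow barcodes, described below, which carry little weight in a sum. For the calgranulins the direction did not turn: thinned shares were 0.174% and 7.46% of barcodes for S100A8 and 0.238% and 6.03% for S100A12.

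Calgranulin transcripts were concentrated in few graft barcodes. The 10 richest barcodes held 51.4% of the graft's S100A8 UMIs and 55.2% of its S100A12 UMIs. In the graft, 62 barcodes with at least 10 S100A8 UMIs held 93.9% of that gene's total, and 57 barcodes with at least 10 S100A12 UMIs held 96.05%. The highest single barcode had 355 S100A8 UMIs, and another had 492 S100A12 UMIs. In the artery the highest counts were 23 and 25. CSF3R was spread thinly, with at most 6 UMIs in a native barcode and 7 in a graft barcode. The plot of calgranulin UMIs against depth shows that these barcodes fell into a shallow and a deep group.

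**Figure D1:**
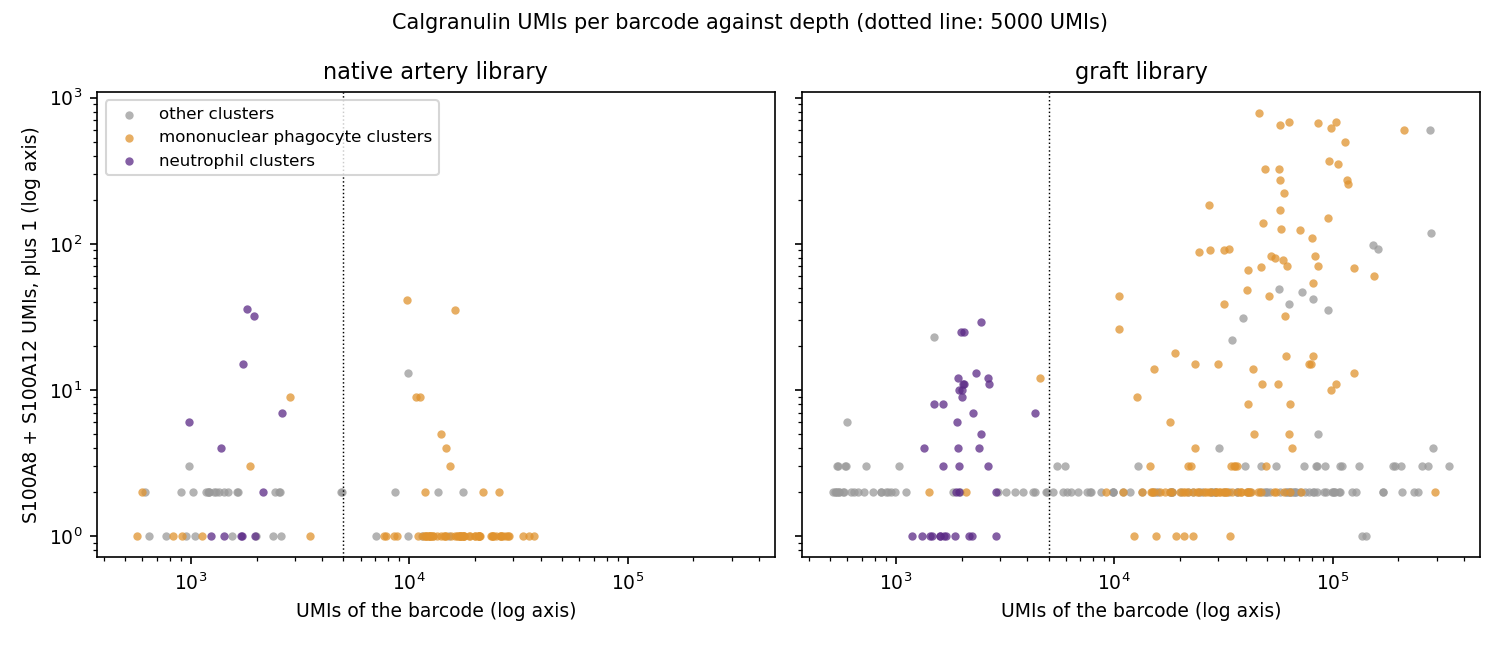
Each point is a kept barcode that belongs to the neutrophil-like cluster or has a UMI of S100A8, S100A12 or CSF3R (left, native artery; right, graft), with its total UMIs on the x axis (log) and its summed calgranulin UMIs plus 1 on the y axis (log). The 12 native and 39 graft barcodes of the neutrophil-like cluster (purple) all lie under 5000 UMIs (dotted line), while most graft phagocyte barcodes with many calgranulin UMIs (orange) lie above it.

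Few barcodes carried CSF3R without macrophage genes, and as a set those few had higher calgranulin levels than barcodes with macrophage genes alone. In the artery 89 barcodes had CSF3R, of which 18 (20.2%, 12.5 to 30.1%) had no C1QA, C1QB or CSF1R UMI and 71 had at least one. In the graft 41 barcodes had CSF3R, of which 4 (9.76%, 2.72 to 23.1%) lacked the macrophage genes and 37 did not. After thinning to 1000 UMIs the shares without macrophage genes were 61.1% in the artery and 40% in the graft. Macrophage genes without CSF3R were found in 3664 native and 859 graft barcodes, and neither kind in 6327 and 174. When all barcodes were clustered, 999 of the 3664 and 302 of the 859 fell into mononuclear phagocyte clusters. The set with macrophage genes alone is thus not one of phagocyte clusters only, and in the graft it had ACTA2, a smooth muscle gene, at 1309 CPM.

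S100A8 was at 824 CPM in native barcodes with CSF3R alone (58 UMIs, in 5 of 18 barcodes) and at 1.77 CPM in native barcodes with macrophage genes alone, a log2 ratio, with nothing added to the levels, of 8.86 (8.18 to 9.58). S100A12 was at 597 and 3.22 CPM in the same sets, a log2 ratio of 7.53 (6.90 to 8.16). Of the 18 native barcodes, 1 in a phagocyte cluster held 23 of the 42 S100A12 UMIs and 17 of the 58 S100A8 UMIs. In the graft, S100A8 was at 2270 CPM in the 4 barcodes with CSF3R alone (20 UMIs, in 3 of 4) and at 133 CPM in those with macrophage genes alone, a log2 ratio of 4.10 (3.39 to 4.73). S100A12 was at 1703 and 207 CPM, a log2 ratio of 3.04 (2.20 to 3.76). The levels with CSF3R alone rest on 18 and 4 barcodes. With each barcode thinned to 1000 UMIs the graft log2 ratios were 2.89 (1.71 to 3.89) for S100A8 and 1.33 (-0.98 to 2.93) for S100A12, the latter an interval that includes 0. The native ones were 10.88 (8.91 to 13.99) and 9.93 (7.84 to 13.09). In the graft the level in the macrophage-gene set was higher than in the artery. Barcodes with macrophage genes and no CSF3R held 91.6% of the graft's S100A8 UMIs and 91.95% of its S100A12 UMIs, against 21.6% and 41.2% in the artery. Over all genes, these barcodes held 31837997 of the graft's 35167561 UMIs and 15220044 of the artery's 40609567. The graft shares thus lie near the share of all UMIs, as does the native share of S100A12.

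Other neutrophil markers were also higher where CSF3R stood alone. CSF3R, which chose the sets, is left out of these counts. In the native sets 6 of 6 markers with at least 10 UMIs were at least 2-fold higher with CSF3R alone, S100A8 and S100A12 among them, against 9.19% of all genes compared. Their median log2 ratio was 3.51, beside -0.42 over all genes. In the graft 5 of 7 were at least 2-fold higher, against 8.89% of all genes, with a median of 3.01 beside -1.38. Of macrophage markers other than C1QA, C1QB and CSF1R, which chose the sets too, 4 of 7 were at least 2-fold lower in the native set with CSF3R alone, against 28.3% of all genes, and 1 was at least 2-fold higher. That one was CD68, at 127.9 CPM with CSF3R alone (9 UMIs) and 59.5 CPM with macrophage genes alone. In the graft 7 of 8 were at least 2-fold lower, against 57.6% of all genes, and none was higher by that much. For CD68, CD163, MRC1, MSR1 and TREM2 this rests on 0 UMIs in the 4 graft barcodes, where 3 counts would make 341 CPM. With macrophage genes alone they were at 329, 128, 229, 288 and 124 CPM in the graft, all under that limit. Those calls therefore cannot show lower levels. The other calls rest on 1 UMI of AIF1 (ratio 0.41, 0.01 to 2.27) and 4 UMIs of CTSS (0.45, 0.12 to 1.155), with intervals that include 1. PTAFR, the receptor for platelet-activating factor, was at 682 CPM in the native set with CSF3R alone and at 50.2 CPM with macrophage genes alone, and at 5108 and 52.2 CPM in the graft sets. C5AR1, the receptor for the complement fragment C5a, was at 1137 and 145 CPM in the artery and at 4200 and 446 CPM in the graft. Genes named by their rank among all symbols included the protease inhibitor SERPINB2 (526 and 6.70 CPM, in 1 of 18 barcodes), the tryptophan-degrading enzyme IDO1 (1151 and 23.5 CPM, in 1), the interferon-induced chemokine CXCL10 (5371 and 141 CPM, in 3) and the monocyte lectin FCN1 (455 and 10.2 CPM, in 2) in the artery. In the graft they included RIPOR2 (4654 and 14.1 CPM, in 4 of 4 barcodes), the cholesterol exporter ABCG1 (5108 and 27.2 CPM, in 4) and TNFAIP6 (5335 and 49.8 CPM, in 2).

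The 2 libraries differed in where barcodes with CSF3R sat when all barcodes were clustered. All 4 graft barcodes with CSF3R alone, and 17 of the 37 with macrophage genes too, were in 1 cluster with neutrophil markers (cluster 19). In the artery 7 of the 18 with CSF3R alone and 5 of the 71 with both were in it, while 57 of the 71 were in cluster 13, a mononuclear phagocyte cluster led by Ovar-DRA, with the costimulator CD86 and the antigen-presenting CD1E among its 10 leading genes. Depth went with this: native barcodes with both kinds of gene had a median of 15584 UMIs, against 1722 with CSF3R alone.

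**Figure D2:**
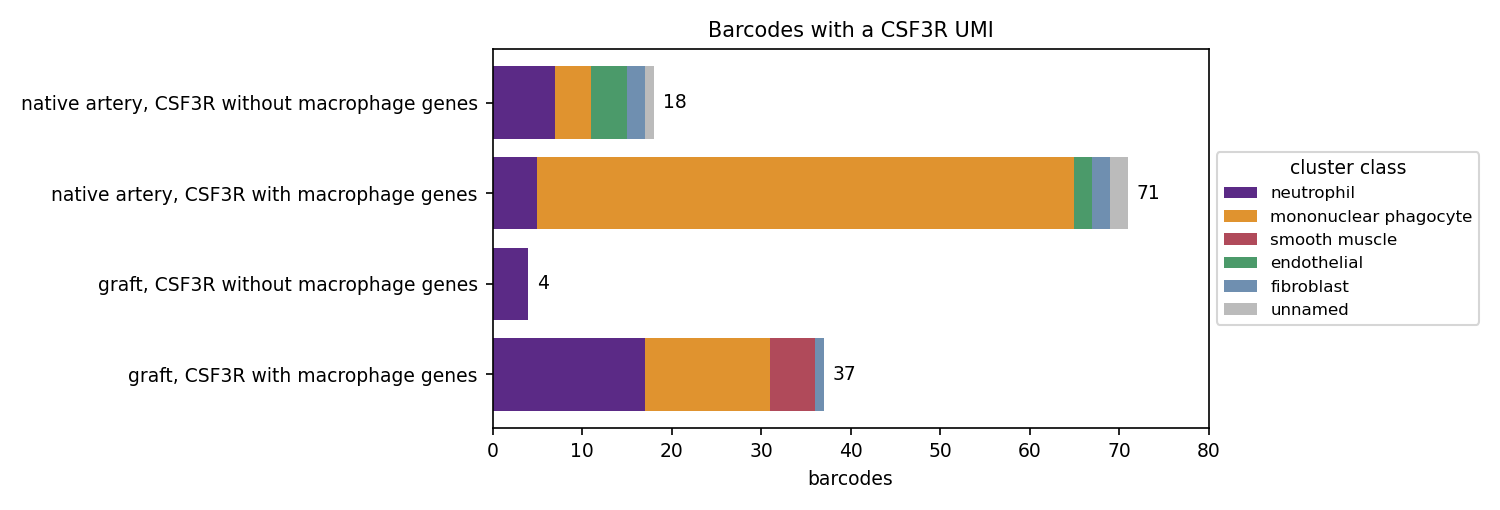
Bars give the number of barcodes with a CSF3R UMI (x axis), without or with a UMI of C1QA, C1QB or CSF1R, in each library, coloured by the class of the cluster they fell into. The 71 native barcodes with both kinds of gene lie mostly in phagocyte clusters, while 21 of the 41 graft barcodes with CSF3R lie in the neutrophil-like cluster.

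Cluster 19 held 12 native barcodes (0.119%, 0.0615 to 0.208%) and 39 graft barcodes (3.63%, 2.60 to 4.93%). Its name rests on 8 markers, CSF3R, S100A8 and S100A12 among them, so their presence in it is no finding. RUBCNL, ABCG1, PTAFR and ANKRD22 led it, followed by CSF3R in seventh place. All of its barcodes were shallow, with 979 to 2608 UMIs in the artery (median 1722) and 1190 to 4342 in the graft (median 1954). Among barcodes under 5000 UMIs it made up 0.162% of 7406 native and 13.4% of 292 graft barcodes. At clustering resolutions of 0.5 and 2, all 12 native and 39 graft barcodes remained in the neutrophil-like cluster. With each library clustered by itself they remained too, with 1 more native barcode.

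S100A8 was at 3101 CPM in the native neutrophil-like barcodes (2388 to 3960, in 7 of 12) and at 1791 CPM in those of the graft (1509 to 2109, in 25 of 39). S100A12 was at 1502 CPM (1021 to 2132, in 5 of 12) and at 952 CPM (750 to 1191, in 21 of 39). CSF3R was at 1550 CPM (1061 to 2189, in 12 of 12) and at 451 CPM (316 to 624, in 21 of 39). As summed levels within this cluster all 3 genes were lower in the graft library, by 1.73-fold for S100A8 (1.27 to 2.34), 1.58-fold for S100A12 (1.00 to 2.43) and 3.44-fold for CSF3R (2.07 to 5.70). Of all genes compared there, 17.1% were at least 2-fold lower in the graft and 26.1% at least 2-fold higher. CXCL8, the neutrophil-attracting chemokine, was at 17927 CPM in the native and 8089 CPM in the graft neutrophil-like barcodes, and the cytokine gene OSM at 1308 and 263 CPM. IL1R2, the decoy receptor for interleukin 1, went the other way, at 48.5 CPM (1 UMI) in the artery and 564 CPM (45 UMIs) in the graft. The native values come from 12 barcodes and 20639 UMIs in all, and 3 of these barcodes held 52 of the 64 S100A8 UMIs and 28 of the 31 S100A12 UMIs. By other measures the calgranulins were not lower in the graft barcodes. The median was 2 S100A8 UMIs per barcode in both libraries, and 0 native and 1 graft S100A12 UMIs. After thinning to 1000 UMIs, S100A8 was present in 45.5% of 11 native and 59.0% of 39 graft barcodes, S100A12 in 27.3% and 41.0%, and CSF3R in 81.8% and 35.9%.

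C1QA, which neutrophils are not known to make, served as a gauge of free RNA and was found in 61.5% of the 39 graft neutrophil-like barcodes. Its level there was 451 CPM, against 113 CPM in graft T or NK barcodes, 19.8 CPM in graft endothelial barcodes and 4948 CPM in graft phagocyte barcodes. Thinned to 1000 UMIs, C1QA was present in 38.5% of neutrophil, 11.8% of T or NK and 2.26% of endothelial barcodes of the graft. Their median depths before thinning were 1954, 6352 and 40303 UMIs. S100A8 was present in 59.0% of graft neutrophil-like barcodes after thinning, against 1.47% of T or NK and 0 of 177 endothelial barcodes, which allows up to 2.06%. CSF3R was present in 35.9% of the 39 and in none of the 68 T or NK or 177 endothelial barcodes. Smooth muscle transcripts were also present in the graft neutrophil-like barcodes, with ACTA2 at 250 CPM against 32.9 CPM in the phagocytes, and 6 of 6 smooth muscle markers were at least 2-fold higher, against 12.2% of all genes. Of these, LMOD1 rests on 1 UMI and SMTN on 3. The part of free RNA in these values was not tested.

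Set against the phagocyte clusters of their own library, the neutrophil-like barcodes had higher levels of neutrophil markers and of most measured chemoattractant receptors, and lower levels of macrophage markers. Both sets come from the clustering, so these values describe the clusters. A ratio of 2 or more was found for 7 of 7 neutrophil markers in the artery (12.3% of all genes) and for 7 of 8 in the graft (12.2%), with median log2 ratios of 5.36 and 3.08 beside -1.30 and -0.77 over all genes. VNN2, a surface protein of neutrophils, was at 388 and 89.7 CPM in native neutrophil-like and phagocyte barcodes and at 338 and 116 CPM in those of the graft. The prokineticin gene PROK2 was seen in 2 graft neutrophil-like barcodes and no native one. S100A12 was the exception in the graft, at 952 CPM against 528 CPM in phagocytes. Of macrophage markers, 9 of 10 in the artery and 10 of 10 in the graft were at least 2-fold lower, against 57.6% and 43.3% of all genes.

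Chemoattractant receptors were at least 2-fold higher in 3 of 4 measured members in both libraries, against 12.3% of all genes in the artery and 12.2% in the graft. The other one, LTB4R, was at least 2-fold lower in the artery, as were 57.6% of all genes. That call rests on 0 UMIs in the native neutrophil-like barcodes, where 3 counts would make 145 CPM. PTAFR was at 4022 and 122 CPM in the artery and at 5084 and 116 CPM in the graft. C5AR1 was at 4651 and 287 CPM in the artery and at 3932 and 1080 CPM in the graft. CXCR4, the CXCL12 receptor that retains neutrophils in marrow, was at 969 and 203 CPM and at 1039 and 202 CPM.

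Of the G-CSF signalling list, 5 of 9 members in the artery and 3 of 10 in the graft were at least 2-fold higher, against 12.3% and 12.2% of all genes, and CSF3R is among them. The 2 of 9 and 3 of 10 that were lower by that much are a smaller share than the 57.6% and 43.3% over all genes. JAK1, a kinase bound to the receptor, was at 1357 and 470 CPM in the artery and at 1152 and 482 CPM in the graft. SOCS3, the inhibitor induced by the receptor, had 0 UMIs in the neutrophil-like barcodes of both libraries, against 123 and 90.7 CPM in phagocytes. At 20639 and 79857 UMIs, 3 counts would make 145 and 37.6 CPM, and the exact upper limits for a count of 0 are 178.7 and 46.2 CPM. Both native limits lie above the level in native phagocytes, and both graft limits below that in graft phagocytes. The ligand CSF3 had 2 UMIs in the whole native and 18 in the whole graft library.

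For the NADPH oxidase, which makes the oxidative burst, 3 of 6 subunits were at least 2-fold higher in the artery and 2 of 6 in the graft, against 12.3% and 12.2% of all genes. By the same measure 1 was lower in the artery and 2 in the graft, against 57.6% and 43.3% of all genes. The cytosolic subunit NCF1 was at 1405 and 105 CPM in the artery and at 476 and 152 CPM in the graft. The membrane subunit CYBB had 0 UMIs in native neutrophil-like barcodes and 62.6 CPM in those of the graft, against 101 and 281 CPM in phagocytes. In the native neutrophil-like barcodes 3 counts would make 145 CPM, above the 101 CPM, so the native count of 0 cannot show a lower level.

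Few UMIs of granule genes were found. MMP8, CD177, PGLYRP1 and ALPL, all on the neutrophil list, had 0 UMIs in the neutrophil-like barcodes of both libraries, and PADI4, the enzyme that citrullinates histones, had 1 UMI in each. The azurophil granule genes MPO, ELANE, PRTN3 and AZU1 had none in the graft neutrophil-like barcodes. LTF, the lactoferrin gene of specific granules, had 22 UMIs, all in 1 graft barcode. The integrin gene ITGAM, the alpha chain of CD11b/CD18, had 0 UMIs in the neutrophil-like barcodes of both libraries, and its partner ITGB2 had 0 and 8. The eosinophil receptor genes IL5RA and CCR3 had 0 UMIs and 1 UMI in each. The limits for a count of 0 given beside SOCS3 hold for these genes too. In phagocytes ITGAM was at 51.0 CPM in the artery, under both native limits, and at 233.8 CPM in the graft, above both graft limits.

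The neutrophil-like cluster held a larger share of native than of graft S100A8, and a smaller share of native than of graft CSF3R. The neutrophil-like cluster held 51.2% of native and 3.10% of graft S100A8 UMIs, 26.05% of native and 1.06% of graft S100A12 UMIs, and 24.6% of native and 53.7% of graft CSF3R UMIs. The mononuclear phagocyte-like clusters (phagocytes below, 1178 native and 318 graft barcodes) held 32.8% and 82.2% of S100A8, 60.5% and 89.5% of S100A12, and 65.4% and 35.8% of CSF3R. With each barcode thinned to 1000 UMIs, the neutrophil-like cluster held 78.95% of native and 47.9% of graft S100A8, and the phagocytes 10.5% and 42.5%. Among barcodes with 5000 UMIs or more the neutrophil-like cluster held 0%, as none is that deep. These graft shares depended on naming: at resolution 2, the cluster led by LPL, S100A12 and FABP4 had no name by the same marker rules, and the named phagocyte clusters held 1.87% of graft S100A8 and 1.07% of graft S100A12. This class joins clusters with macrophage, monocyte or dendritic cell markers, and the 2 largest native ones had dendritic cell markers foremost. In phagocytes S100A8 was at 5.48 CPM in the artery and 312 CPM in the graft, S100A12 at 9.62 and 528 CPM, and CSF3R at 11.4 and 1.98 CPM. Of all genes compared in phagocytes, 4.51% were at least 2-fold higher in the graft and 3.33% at least 2-fold lower. CSF3R was the only one of the 3 genes lower there, by 5.75-fold (3.62 to 9.46). Without the neutrophil-like cluster, an alternative chosen after seeing the data, the graft-over-native log2 ratio of CSF3R over all barcodes was -1.45.

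**Figure D3:**
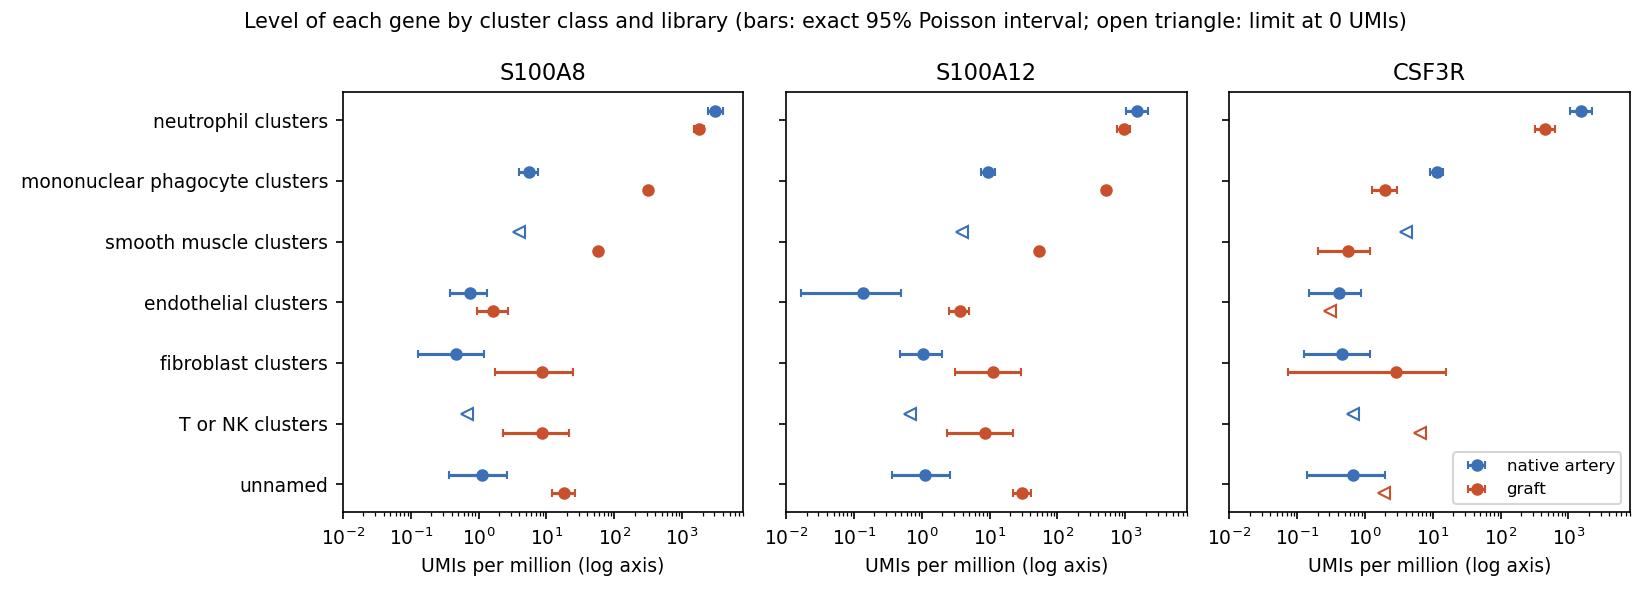
Points give the level of each gene in CPM (x axis, log) in each cluster class (y axis) of the native artery (blue) and graft (orange-red) library, with exact 95% Poisson intervals, and open triangles give the level that 3 counts would make where a class had 0 UMIs. S100A8 and S100A12 are highest in neutrophil-like clusters in both libraries and stand at 312 and 528 CPM in graft phagocytes, while CSF3R stands at 1.98 CPM there.

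Different clusters made up the phagocytes of each library. In the artery clusters 6 and 13 held 699 and 390 of the barcodes, and in the graft clusters 15 and 13 held 250 and 51. Cluster 13, present in both, allowed a comparison within 1 cluster. There S100A8 was at 6.85 CPM in the artery (4.92 to 9.30) and at 48.6 CPM in the graft (36.2 to 64.0), and S100A12 at 11.4 CPM (8.82 to 14.4) and 63.9 CPM (49.5 to 81.2). CSF3R was at 13.4 CPM (10.6 to 16.6) and 20.0 CPM (12.4 to 30.6), intervals that overlap. The monocyte gene FCN1 was at 35.6 CPM in native and 112.5 CPM in graft barcodes of the cluster. In the graft 10 of 51 barcodes of cluster 13 had S100A8, and in the artery 7 of 390.

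Cluster 15 was nearly graft-specific, with 250 graft barcodes and 1 native barcode. It was led by the lipase LPL, S100A12, the fatty acid carrier FABP4, SCIN and GPNMB, so the high S100A12 level there belongs to what defines it. It held 3731 S100A8 UMIs (81.0% of the graft total), 6344 S100A12 UMIs (88.5%) and 2 CSF3R UMIs. Macrophage markers at least 2-fold higher in it than in the other clusters included C1QA, C1QB, CSF1R, CD68, CD163, MRC1 and MSR1.

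Within cluster 15 the calgranulins were present at high levels in a minority of barcodes. In 42 barcodes (16.8%) there were at least 20 calgranulin UMIs, and these held 96.1% of the cluster's S100A8 and 98.5% of its S100A12 UMIs. A further 61 had 1 to 19, and 147 (58.8%) had 0. Median depths in these sets were 59488, 34407 and 30418 UMIs, so barcodes with 0 calgranulin UMIs were deep, and the calgranulin-rich ones deeper still. The part of depth in the split was not tested. Over the 250 barcodes the log2 counts plus 1 of S100A8 and S100A12 had a Pearson correlation of 0.93, as a description of barcodes that share 1 library and differ in depth. At 1000 UMIs, S100A8 was found in 59.5% of the 42 calgranulin-rich barcodes and in 59.0% of the 39 graft neutrophil-like barcodes, and S100A12 in 61.9% and 41.0%. Set beside the neutrophil-like cluster, the 42 had S100A8 at 1186 against 1791 CPM, S100A12 at 2069 against 952 CPM, CSF3R at 0.331 against 451 CPM and PTAFR at 71.8 against 5084 CPM. The 42 were picked by their S100A8 and S100A12 UMIs, so their shares and levels of these genes follow from the cut-off and are no finding. Of the neutrophil list, 4 of 7 members were at least 2-fold lower in the 42 and 1 was higher, against 13.8% and 50.7% of all genes. The higher one was S100A12, which helped to pick the 42. All 10 macrophage markers compared were higher in the 42. CSF3R was found in 0 of the 42 after thinning and had 1 UMI in them before it, against 35.9% of the neutrophil-like barcodes after thinning.

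The calgranulin-rich barcodes of cluster 15 also had higher FABP4, LPL and SLC7A11 and lower SLC40A1, SIGLEC1 and STAB1 levels than those with 0. The sets were split by calgranulin UMIs after the data had been seen, and in the rich set 2.5% of all genes stood at a ratio of 2 or more and 5.22% at 0.5 or less. FABP4 was at 737 CPM with at least 20 calgranulin UMIs and at 2.82 CPM with 0, a 262-fold difference (156 to 480), though in 17 of the 42 barcodes only. SLC7A11, a cystine transporter, was present in 42 of 42, at 680 and 48.9 CPM. LPL was at 1358 and 454 CPM, the gluconeogenic enzyme FBP1 at 294 and 14.5 CPM, the lysosomal protease CTSL at 195 and 13.1 CPM and the gelatinase MMP9 at 242 and 57.9 CPM. On the other side stood the iron exporter SLC40A1 (8.27 and 471 CPM), the sialoadhesin SIGLEC1 (2.32 and 105 CPM), the scavenger receptor STAB1 (17.2 and 286.5 CPM), the complement factor CFD (113 and 1441 CPM) and the coagulation factor subunit F13A1 (10.3 and 151 CPM).

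Macrophage identity genes were lower but present in the calgranulin-rich barcodes. C1QA was at 1639 and 7121 CPM, CSF1R at 181 and 395 CPM and CD163 at 257 and 405 CPM, and 3 of 10 macrophage markers (C1QA, C1QB and CSF1R) were at least 2-fold lower and none higher. CD68 (914 and 719 CPM) and the scavenger receptor MSR1 (878 and 709 CPM) differed by less than 2-fold. Of the neutrophil list only S100A8 and S100A12, which chose the sets, were at least 2-fold higher among 5 members. IL1R2 had 1 UMI with at least 20 calgranulin UMIs and 7 with 0. Among other S100 genes, S100A11 was at 1959 and 848 CPM and S100A4 at 10538 and 5808 CPM.

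**Figure D4:**
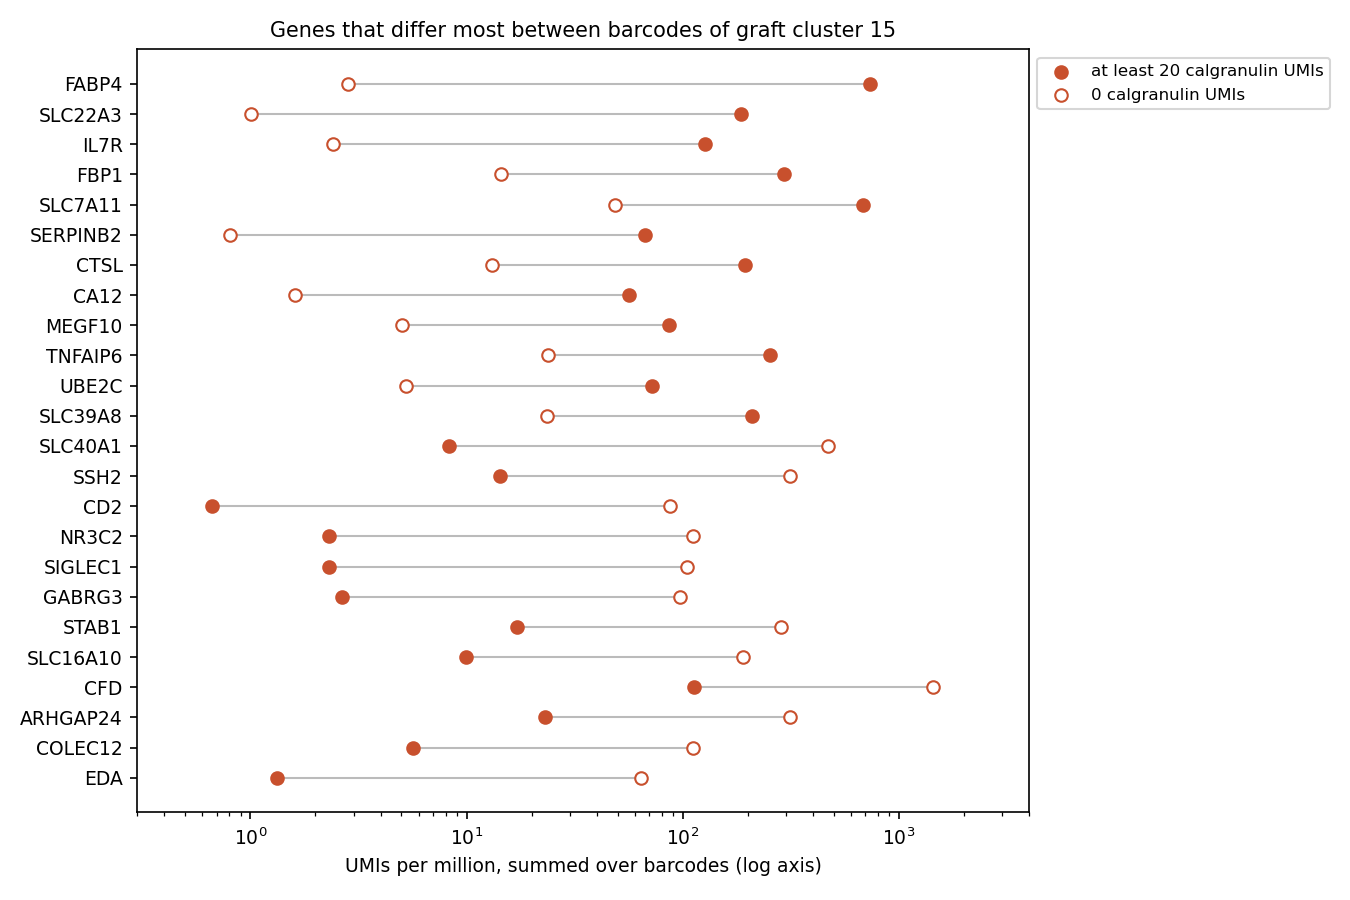
Points give levels in CPM (x axis, log) of 24 genes, the 12 top and 12 bottom ratios between the 42 barcodes with at least 20 calgranulin UMIs (filled) and the 147 with 0 (open) in graft cluster 15. FABP4 stands at 737 against 2.82 CPM and SLC40A1 at 8.27 against 471 CPM.

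In summed UMIs, S100A12 was the minor calgranulin in the neutrophil-like cluster and the major one in phagocyte clusters, in both libraries, though few native barcodes bear on this. S100A12 made up 32.6% of the calgranulin UMIs in the native neutrophil-like cluster (31 of 95 UMIs, 23.4 to 43.0%) and 34.7% in that of the graft (76 of 219, 28.4 to 41.4%). In phagocyte clusters it made up 63.7% in the artery (72 of 113, 54.1 to 72.6%) and 62.9% in the graft (6415 UMIs beside 3785 of S100A8, 62.0 to 63.8%). The native phagocyte value rests largely on 2 barcodes. They held 25 and 23 of the 72 S100A12 UMIs, and 9 and 17 of the 41 S100A8 UMIs. The neutrophil and phagocyte intervals did not overlap in either library. The clusters were built on these genes among others. In sets chosen without clustering, the native share was 42.0% with CSF3R alone (32.2 to 52.3%) and 64.5% with macrophage genes alone (52.7 to 75.1%). Of the 42 native S100A12 UMIs with CSF3R alone, 23 were in 1 barcode of a phagocyte cluster. In the graft the shares were 42.9% (26.3 to 60.7%) and 60.95% (60.0 to 61.9%), where the intervals overlapped. Among barcodes with at least 10 calgranulin UMIs, S100A12 exceeded S100A8 in 0 of 9 graft neutrophil-like barcodes, ranging from 16.7% to 46.4%, and in 36 of 54 barcodes of cluster 15, ranging from 0% to 89.8%. In the artery the counts were 0 of 3 neutrophil and 2 of 2 phagocyte barcodes. UMIs of 1 barcode are not independent, so these intervals are too narrow.

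**Figure D5:**
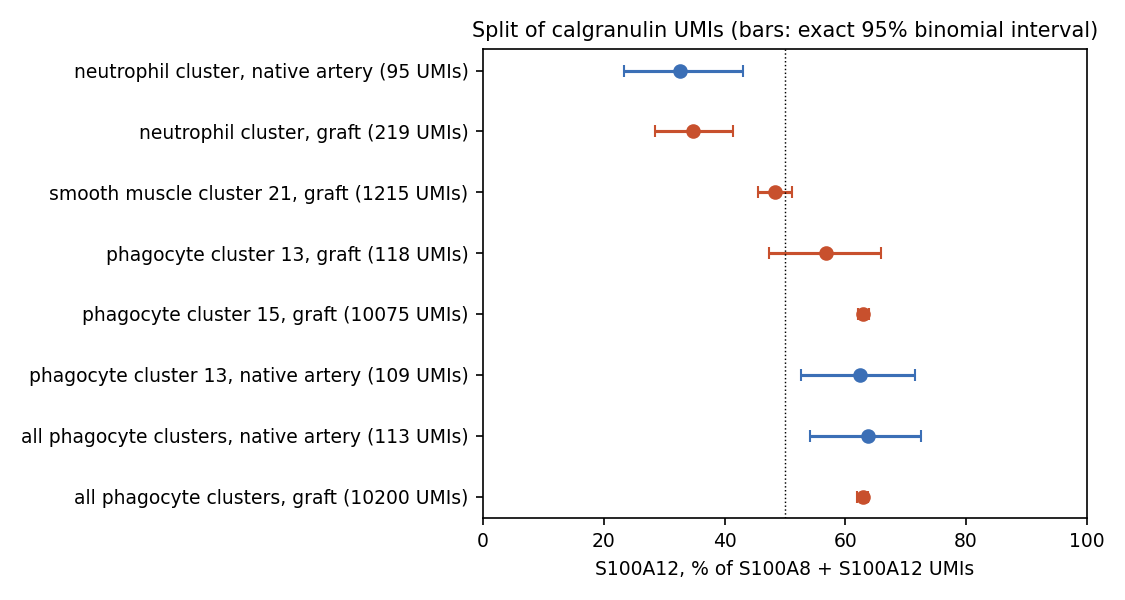
Points give S100A12 as a percent of S100A8 plus S100A12 UMIs (x axis) in each set of barcodes (y axis, with the number of UMIs), with exact 95% binomial intervals; blue is the native artery, orange-red the graft and the dotted line marks equal counts. The neutrophil-like cluster stands at 32.6% and 34.7% and the phagocyte clusters at 63.7% and 62.9%.

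Calgranulins in the graft's smooth muscle barcodes lay in a few of them. The main graft smooth muscle cluster (cluster 21, 194 barcodes) held 628 S100A8 and 587 S100A12 UMIs, of which 11 barcodes held 97.3% and 94.7%. One of the 11 had 355 S100A8 UMIs. Without it the smooth muscle class was at 25.8 CPM S100A8 instead of 57.9. The 11 barcodes had a median of 81335 UMIs, against 33560 in the other 183. C1QA was at 1969 CPM in them and 410 CPM in the others, and the myosin gene MYH11 at 368 and 678 CPM. Whether these barcodes hold more than 1 cell was not tested. Elsewhere the 3 genes were low: T or NK barcodes of the artery had 0 UMIs of each among 4471413, and graft endothelial barcodes had S100A8 at 1.65 CPM, S100A12 at 3.61 CPM and CSF3R at 0 UMIs among 9689304.

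Across 23 units, each a cluster of at least 30 barcodes in 1 library, the calgranulins followed each other more closely than they followed CSF3R. Correlations are of log2 of CPM plus 5, over units that share 2 libraries and their depths. S100A8 and S100A12 had a correlation of 0.99 with each other, and 0.73 and 0.67 with CSF3R. Besides each other, the genes closest to S100A8 were SDSL (0.92), the itaconate-making enzyme ACOD1 (0.90), the divalent metal transporter SLC11A1 (0.88) and C1orf162 (0.86). Those closest to S100A12 were ACOD1 (0.93), SLC11A1 (0.89), SDSL (0.89) and the lectin CLEC4D (0.88). For CSF3R they were MB21D2 (0.96), PROK2 (0.93), TARM1 (0.92), ANKRD22 (0.92) and FEM1C (0.92). Among the genes closest to the calgranulins, SLC11A1 was highest in graft cluster 15. SDSL, ACOD1, C1orf162, CLEC4D and each of the CSF3R-like genes were highest in 1 unit, the graft neutrophil-like cluster. Some levels there were low in counts: MB21D2 and PROK2 were at 87.7 CPM, which is 7 UMIs for PROK2, and TARM1 and ACOD1 at 75.1 CPM. The native neutrophil-like cluster, with 12 barcodes, is not among the 23 units.

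Some other members of the S100 family were also higher in graft phagocytes. Of 10 with at least 10 UMIs, 7 were at least 2-fold higher than in the artery, S100A8 and S100A12 among them, against 4.51% of all genes, and none was at least 2-fold lower. S100A3 and S100B, with 3 and 2 native UMIs, passed the minimum through the graft alone. S100A13 stood at 39.7 CPM in the artery and 28.1 CPM in the graft, and S100A16 at 8.42 and 4.53 CPM. S100A4, linked to cell motility, was at 1005 CPM in the artery and 7621 CPM in the graft, S100A11 at 591 and 1245 CPM, and S100A3 at 0.401 and 19.1 CPM. The median log2 ratio of the 10 was 1.34. In neutrophil-like barcodes S100A4 was at 48.5 CPM (1 UMI) in the artery and 789 CPM in the graft.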

How the data were processed

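Single-cell RNA counts were deposited as 2 matrices of UMI counts per gene and barcode, made by the authors with Cell Ranger 7.2.0, per the file headers. Seurat 5.0.0, R 4.3.3 and bcl2fastq 2.20.0.422 are listed too, per the submitters' processing notes, with no step attached. The genome build is not given in the sources used here. Of the genes, 6435 carry no symbol. The 3 genes, the gene lists and the comparisons were chosen with earlier results of these data known.

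Barcodes with at least 200 genes and at most 20% of UMIs from 13 mitochondrial genes were kept (Python 3.11.15, scanpy 1.11.5, numpy 2.4.6, scipy 1.17.1, igraph 0.11.9). Scrublet's automatic calls marked 0 native and 3 graft barcodes, too few to be working, so the highest scores were removed at 0.8% per 1000 barcodes (1034 and 12). Both libraries were clustered together without integration (2000 variable genes, 30 principal components, 15 neighbours, Leiden resolution 1). Clusters were named from at least 3 markers at least 2-fold higher, with limits set after the clusters were seen. Kept libraries held 40609567 native and 35167561 graft UMIs, and intervals cover counting error only.

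Folds are ratios of summed CPM. Calls of 2-fold add 5 CPM to both levels and take genes with at least 10 UMIs. A count of 0 was given the level of 3 counts. Named genes are the 12 highest and 12 lowest log2 ratios at 50 CPM and 30 UMIs or more, and the 5 genes most like each of the 3; other named genes are list members or were picked after their values were seen. Thinning to 1000 UMIs left out 3773 native and 162 graft barcodes. Ratios and intervals were tested on data simulated from summed counts. Such data cannot show how UMIs clumped in few barcodes affect the intervals. The values of some list members are not reported here. Alternatives varied the barcode filters, doublet removal, clustering, depth, thinning, weighting and the definition of a barcode with CSF3R.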

Additional observations from a re-analysis of the deposited data

How the results depend on the processing

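No paired analysis was possible because each group is 1 library, so no library could be left out either. Of 220 values recomputed under alternatives, 147 moved by less than their counting interval, 71 moved by more and 2 reversed. The cause of a move was not tested unless the setting itself gives it. The 2 reversals were the graft-over-native log2 ratio of CSF3R, at 2.31 with equal weight per barcode and 2.34 at 1000 UMIs per barcode. No graft barcode with CSF3R alone reached 5000 UMIs, so its calgranulin ratios and marker median have no value there.

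With 2 CSF3R UMIs required, 26.7% of graft CSF3R barcodes lacked macrophage genes, and native log2 ratios of CSF3R alone over macrophage genes alone were 10.6 for S100A8 and 9.38 for S100A12. With at least 2 UMIs required, graft and native shares of barcodes were 1.40% and 0.218% for CSF3R, 9.68% and 0.129% for S100A12, and 10.1% and 0.139% for S100A8.

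The phagocyte share of graft S100A8 and S100A12 UMIs followed whether cluster 15 was named: 1.91% and 1.07% at a 10% mitochondrial limit, 18.2% and 20.6% with libraries clustered alone, 1.84% and 1.05% with no filter, 1.88% and 1.01% with no doublet removal, and 1.87% and 1.07% at resolution 2.

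At 5000 UMIs or more, the share of CSF3R barcodes without macrophage genes was 0% in the graft and 6.35% in the artery, and the native S100A8 log2 ratio between these sets was 7.60. No neutrophil-like barcode is that deep, so that cluster's shares of all 3 genes were 0%. Phagocyte shares in graft and artery were 79.3% and 94.0% for CSF3R, 90.95% and 87.8% for S100A12, and 85.3% and 86.05% for S100A8. Graft-over-native log2 ratios were -1.74 for CSF3R and 6.46 for S100A8. Shares of barcodes were 2.30% and 2.36% for CSF3R, and 0.374% of native barcodes for S100A12.

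At 1000 UMIs per barcode, 40% of graft and 61.1% of native CSF3R barcodes lacked macrophage genes. Graft and native log2 ratios between the sets were 1.33 and 9.93 for S100A12 and 2.89 and 10.88 for S100A8, and the native neutrophil list's median, CSF3R included, was 7.81 instead of 3.67. Graft and native phagocyte shares were 5.26% and 26.9% for CSF3R, 58.1% and 26.7% for S100A12, and 42.5% and 10.5% for S100A8. Neutrophil-like shares were 94.7% and 65.4% for CSF3R, 26.4% and 50% for S100A12, and 47.9% and 78.95% for S100A8. Graft-over-native log2 ratios were 4.89 for S100A12 and 4.93 for S100A8. Shares of barcodes were 1.65% and 0.285% for CSF3R, 6.03% of graft barcodes for S100A12, and 7.46% and 0.174% for S100A8.

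With equal weight per barcode, the native S100A8 log2 ratio between the CSF3R and macrophage sets was 9.94, and graft-over-native log2 ratios were 5.68 for S100A12 and 5.00 for S100A8. Without the neutrophil-like cluster, chosen after seeing the data, they were -1.45 for CSF3R, 6.54 for S100A12 and 6.40 for S100A8. Adding 1 CPM in place of 5, resolution 0.5, other UMI-majority rules for CSF3R against macrophage genes, totals without mitochondrial and ribosomal genes, and leaving out the barcode richest in UMIs (chosen after seeing the data) moved none of the values they were run on.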
